A study of Mus musculus with 5 samples.

Results

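The genes described here are 10 secreted antagonists of Wnt signalling in cultured mouse mesenchymal stem cells of the bone marrow (BMSCs), which are stromal cells able to turn into osteoblasts, adipocytes or chondrocytes. They were taken by symbol, and all 10 were found once each among the 55401 genes of the deposited table: Sfrp1, Sfrp2, Sfrp4, Sfrp5, Frzb, Dkk1, Dkk2, Dkk3, Wif1 and Sost. The study held wild-type BMSCs under continuous negative pressure of -80, -120, -160 or -200 mmHg for 48 h, after 72 h of culture, and set them against BMSCs at 0 mmHg, the control. With 1 RNA-seq library for each of the 5 conditions, differences carry no replicate check and no p-value. The deposited values are FPKM, read counts scaled to exon length and to the library total, and they gave back whole reads for every member. Intervals below are exact 95% intervals of those reads and cover counting error only.

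Wnt ligands are secreted glycoproteins that bind Frizzled receptors together with the co-receptors Lrp5 and Lrp6, and the beta-catenin branch of the pathway promotes osteoblast formation in bone. The antagonists work outside the cell by different routes. Secreted frizzled-related proteins (Sfrp1, Sfrp2, Sfrp4, Sfrp5 and Frzb) carry a cysteine-rich domain like that of the Frizzled receptors and can bind Wnt ligands, as does Wif1 through a domain of its own. Dkk1, Dkk2 and sclerostin, the product of Sost, bind Lrp5 and Lrp6 instead.

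The libraries held 16600622 to 18398911 reads. The control library stood apart from the other libraries. It held 2493 reads of 4 genes of the Y chromosome (Uty, Kdm5d, Ddx3y and Eif2s3y), against 0 reads in each of the 4 pressure libraries. Across genes, log2 differences had an SD of 0.79 to 0.83 against the control but 0.24 to 0.26 between pressures, and where the control cells came from and what pressure did cannot be told apart in any contrast with that library. No contrast with an unpressured culture exists without it. The stromal label was met in part. Pdgfra, Pdgfrb, Cxcl12, Itgb1, Cd44 and Ly6a were all present in every library, the lowest being Cd44 with 14.5 FPKM at -80 mmHg. Vcam1 stood at 8.35 to 9.58 FPKM under pressure and 17.8 FPKM in the control. Eng was low at 1.52 to 2.43 FPKM, against 1.34 FPKM, and Nt5e at 0.875 to 1.28 FPKM, against 0.322 FPKM. Alcam was at 0.135 to 0.236 FPKM, against 1.05 FPKM. Lepr stayed at or under 0.393 FPKM, and Thy1 had 51 to 91 reads under pressure and 1 read in the control. The 12 stromal markers summed to 1203 to 1397 FPKM under pressure and 2269 FPKM in the control, a difference carried by Ly6a (622 to 828 FPKM, against 1740.5 FPKM). The other 11 summed to 544 to 581 FPKM under pressure and 529 FPKM in the control. Of 10 haematopoietic markers 1 was measured (Cd34, at 42.6 to 51.2 FPKM under pressure and 39.7 FPKM in the control), and Itgam and Cd3e had 0 reads throughout. Summed levels were 3.45 to 4.99 FPKM under pressure against 1.15 FPKM in the control for 6 endothelial markers, 59.1 to 61.5 FPKM against 44.0 FPKM for 6 adipocyte markers (Adipoq at 0 throughout), and at most 0.154 FPKM in any library for 6 epithelial markers. The endothelial difference was mostly Plvap, at 2.70 to 4.18 FPKM under pressure against 0.711 FPKM. Kdr was at 0.345 to 0.487 FPKM against 0.120 FPKM, Vwf at 0.0337 to 0.0600 FPKM against 0.0643 FPKM, and Cdh5 had at most 2 reads in any library. Among the adipocyte markers Lpl was at 51.5 to 54.7 FPKM under pressure against 14.6 FPKM in the control, Fabp4 at 1.53 to 1.95 FPKM against 21.9 FPKM, and the 5 genes other than Lpl summed to 6.83 to 7.76 FPKM against 29.4 FPKM. The part of these in the results was not tested.

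Within the frizzled-related family, coding sequences were most alike in a pair of gene pairs. Sfrp1 and Sfrp5 were 68.3% identical over 915 aligned coding bases and Sfrp4 and Frzb 67.1% over 926. Any frizzled-related gene and any of the other members reached 51.7% to 59.4%. Sfrp1 and Sfrp5, each against Sfrp4 and Frzb, lay within that range, as did Sfrp2 against Frzb. Sfrp2 with Sfrp5 lay above it, but so did Dkk1 with Dkk2, Dkk2 with Wif1 and Wif1 with Sost. Coding identity therefore did not set the frizzled-related family apart from the other members. Sfrp2 was 62.7% identical to Sfrp1. The most alike gap-free stretch of 120 coding bases is shown for Sfrp1 with Sfrp5 and for Sfrp4 with Frzb. These pairs are shown because Sfrp1 stood furthest below the control, and Sfrp4 and Frzb stood above it. Capitals mark bases that are identical within the pair. The sequences are from GENCODE release M21 transcripts, 5′ to 3′, starting at coding base 231 of Sfrp1, 207 of Sfrp5, 68 of Sfrp4 and 101 of Frzb.
Sfrp1: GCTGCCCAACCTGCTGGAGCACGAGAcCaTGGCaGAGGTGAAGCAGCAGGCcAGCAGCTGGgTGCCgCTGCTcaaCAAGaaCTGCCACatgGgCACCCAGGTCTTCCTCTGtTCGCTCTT
Sfrp5: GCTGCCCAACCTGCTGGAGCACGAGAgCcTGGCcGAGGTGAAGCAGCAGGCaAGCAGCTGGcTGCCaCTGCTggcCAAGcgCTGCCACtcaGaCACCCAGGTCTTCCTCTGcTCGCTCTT
Sfrp4: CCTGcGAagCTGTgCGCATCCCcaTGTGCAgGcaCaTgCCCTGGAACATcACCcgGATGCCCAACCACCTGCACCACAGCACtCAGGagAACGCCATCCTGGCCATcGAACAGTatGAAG
Frzb: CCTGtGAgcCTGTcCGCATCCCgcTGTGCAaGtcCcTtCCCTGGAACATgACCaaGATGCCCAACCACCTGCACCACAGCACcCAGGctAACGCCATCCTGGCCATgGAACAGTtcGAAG
The stretches shared 104 bases in Sfrp1 and Sfrp5 and 100 in Sfrp4 and Frzb. Over whole transcripts, 12 of 4318 words of 50 nt in Sfrp1, 13 of 4223 in Sfrp4 and 0 in Frzb and Dkk3 also occurred in transcripts of other genes. Sfrp2 shared 252 of 2103 such words, all with Gm26771, a gene on the opposite strand with 0 to 4 reads per library. The sources used here do not give the strand setting of the counting, so reads from the shared words cannot be told apart between Sfrp2 and Gm26771.

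Sfrp1, which binds Wnt ligands and whose loss in mice raises trabecular bone mass, was the most abundant antagonist in the control and nearly undetected under pressure. Sfrp1 (ENSMUSG00000031548.7) lies on the plus strand of chromosome 8, from 23411502 to 23449632 in GRCm38. It stood at 126 FPKM in the control, then 0.247 FPKM (-80 mmHg), 0.193 FPKM (-120 mmHg), 0.282 FPKM (-160 mmHg) and 0.139 FPKM (-200 mmHg). These were 18, 14, 21 and 11 reads in the pressure libraries in that order of pressure, against 10175 reads in the control. Per library total the pressure libraries held 0.00110 to 0.00223 of the control's reads. The most extreme library, at -200 mmHg, was 908-fold lower (interval 507 to 1819), and the -160 mmHg library 448-fold lower (293 to 724). Among all genes of the table Sfrp1 had rank 404 by FPKM in the control and ranks 15372 to 17388 under pressure.

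**Figure D1:**
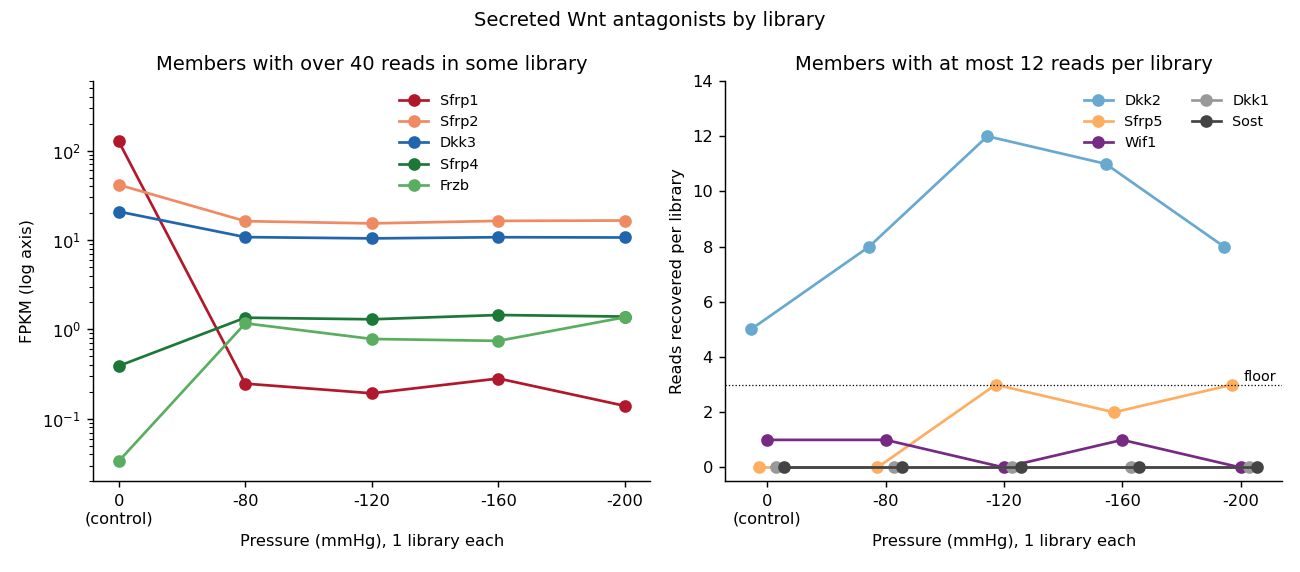
FPKM on a log axis of the 5 members with the most reads (left) and reads of the other 5 members (right), by library, with 1 library per pressure and lines that join the values of a gene. Sfrp1 ran at 0.139 to 0.282 FPKM under pressure, against 126 FPKM in the control, while Sfrp4 and Frzb were higher in every pressure library than in the control.

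Sfrp2, a second frizzled-related Wnt binder of stromal cells, was lower under pressure than in the control, and was the most abundant antagonist under pressure. Sfrp2 (ENSMUSG00000027996.13, chromosome 3, 83766321 to 83774316, plus strand) stood at 41.5 FPKM in the control, then 16.2 FPKM (-80 mmHg), 15.3 FPKM (-120 mmHg), 16.4 FPKM (-160 mmHg) and 16.5 FPKM (-200 mmHg). The 4 pressure libraries lay between 15.3 and 16.5 FPKM, all below the control. Their reads per library total were 0.370 to 0.398 of the control's, with intervals that together ran from 0.335 to 0.437. The stretch of 250 bases before its RefSeq start (GRCm38.p6, plus strand) is shown at chr3:83766071-83766320 with its CpG dinucleotides in capitals, since promoters dense in CpG can be controlled by DNA methylation, which was not measured here.
Sfrp2 upstream: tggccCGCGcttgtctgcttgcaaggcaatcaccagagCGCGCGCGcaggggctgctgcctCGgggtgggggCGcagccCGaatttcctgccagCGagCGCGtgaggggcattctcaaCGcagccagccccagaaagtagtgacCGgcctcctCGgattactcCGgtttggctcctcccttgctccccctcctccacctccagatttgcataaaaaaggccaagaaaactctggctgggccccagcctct
It held 16 CpG at a GC content of 63.6%, against a median GC content of 52.4% over 32851 such windows. The observed over expected CpG ratio was 0.640 in the Sfrp2 window, against a median of 0.373. Windows were present for 7 members, but not for Sfrp1, Sfrp4 and Dkk3. Those of Frzb, Dkk1 and Wif1 reached into the annotated gene, unlike that of Sfrp2. Sfrp2 was not alone in its ratio, which was 0.644 for Frzb, 0.657 for Sfrp5 and 0.858 for Wif1. It was 0.449 for Dkk2, and 0.260 for both Dkk1 and Sost. The motif TATAAA, on either strand, occurred in 3 of the 7 windows (Dkk1, Dkk2 and Wif1) and in 12.4% of all windows. CTTTGAT or CTTTGAA, forms of the TCF/LEF motif searched on both strands, occurred in 1 of the 7 (Dkk1) and in 7.48% of all windows.

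Dkk3, a divergent member of the Dickkopf family whose action on Wnt signalling differs between cell types, was lower in every pressure library than in the control, by close to 2-fold. Dkk3 (ENSMUSG00000030772.6, chromosome 7, 112116017 to 112159057, minus strand) stood at 20.8 FPKM in the control, then 10.8 FPKM (-80 mmHg), 10.4 FPKM (-120 mmHg), 10.7 FPKM (-160 mmHg) and 10.7 FPKM (-200 mmHg). The 4 pressure libraries lay close together and did not overlap the control. Reads per library total were 0.501 to 0.518 of the control's (intervals within 0.454 to 0.571), so the counting error did not place Dkk3 on either side of a 2-fold difference.

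Sfrp4 and Frzb, the alike pair of the sequence comparison, stood the other way. Loss of SFRP4 in humans thins cortical bone, and Frzb is known from developing cartilage. Sfrp4 (ENSMUSG00000021319.7, chromosome 13, 19623104 to 19632994, plus strand) stood at 0.390 FPKM in the control, then 1.35 FPKM (-80 mmHg), 1.30 FPKM (-120 mmHg), 1.45 FPKM (-160 mmHg) and 1.39 FPKM (-200 mmHg). Per library total it had 3.32 to 3.71 times the reads of the control, from 90 to 105 reads under pressure against 30 in the control, and the lowest interval began at 2.18. Frzb (ENSMUSG00000027004.3, chromosome 2, 80411970 to 80447625, minus strand) stood at 0.0336 FPKM in the control, then 1.17 FPKM (-80 mmHg), 0.782 FPKM (-120 mmHg), 0.745 FPKM (-160 mmHg) and 1.37 FPKM (-200 mmHg). With 41 to 80 reads under pressure and 2 reads in the control, the ratio was 22.2 at -160 mmHg (interval 5.76 to 189) and 40.8 at -200 mmHg (10.9 to 342). Both genes were higher in all 4 pressure libraries than in the control, at levels far below those of Sfrp2 and Dkk3. Of 6 chondrocyte markers, which together summed to 3.02 to 4.14 FPKM under pressure against 7.99 FPKM in the control, Acan, Col2a1, Col9a1 and Matn3 had at most 9 reads in any library. Comp was at 0.859 to 1.22 FPKM under pressure, against 0.330 FPKM in the control, and Sox9 at 2.10 to 3.02 FPKM, against 7.60 FPKM. Their part in the levels of Sfrp4 and Frzb was not tested. In bulk RNA more cells of a type and more RNA per cell cannot be told apart.

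**Figure D2:**
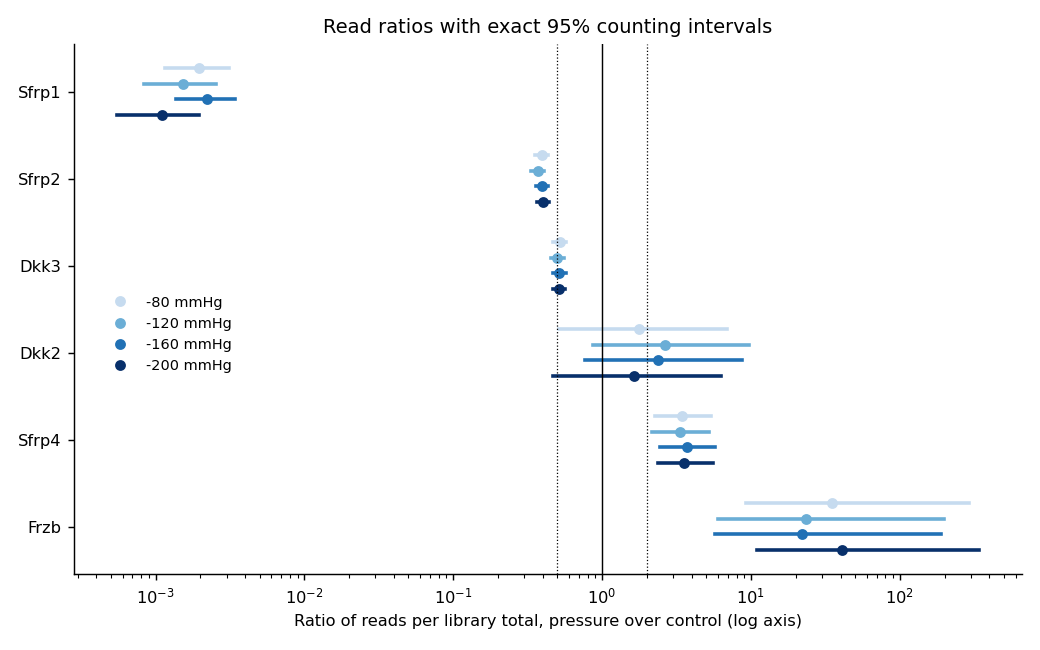
Ratio of reads per library total, each pressure library over the control, on a log axis, with exact 95% counting intervals (bars) for the 6 members with more than 3 reads in every pressure library. Dotted lines mark 2-fold differences. Sfrp1 and Sfrp2 lay below the lower line, Sfrp4 and Frzb above the upper one, and Dkk3 lay on the lower line.

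The remaining members were at or near the limit of detection. Dkk2 had 5 reads in the control and 8, 12, 11 and 8 reads from -80 to -200 mmHg, and each of its 4 ratio intervals included 1. Sfrp5 had 0 reads in the control and 0, 3, 2 and 3 reads from -80 to -200 mmHg, and Wif1 had 1 read or 0 in every library. Dkk1, a feedback inhibitor of the pathway, and Sost, made mainly by osteocytes, had 0 reads in all 5 libraries. A floor of 3 reads allows up to 0.0672 to 0.0745 FPKM for Dkk1 and 0.0789 to 0.0875 FPKM for Sost, so a change of either was not detectable at this depth. Other osteocyte genes were also low, with 0 reads of Mepe and at most 2 of Dmp1 in any library. Phex had 2 to 14 reads under pressure against 76 in the control, and Fgf23 had 0 to 1 against 11, while Pdpn stood at 147 to 180 FPKM under pressure and 129 FPKM in the control.

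The order of the levels, which FPKM allows because it is per length, therefore differed between the pressure libraries and the control. In the control it ran Sfrp1, Sfrp2, Dkk3, Sfrp4, Dkk2, Frzb, Wif1. Counting intervals of neighbours overlapped there from Dkk2 downward. Under each pressure it ran Sfrp2, Dkk3, Sfrp4, Frzb. The intervals of Sfrp4 and Frzb overlapped at -80, -120 and -200 mmHg and were apart at -160 mmHg. Sfrp1 and Dkk2 followed, with intervals that overlapped at every pressure.

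The summed level of the 10 genes was 28.3 to 30.3 FPKM under pressure and 189 FPKM in the control. Sfrp1 made up 0.460% to 0.946% of that sum under pressure and 66.8% in the control. Without Sfrp1 the sum was 28.1 to 30.1 FPKM under pressure and 62.8 FPKM in the control. Sfrp2 made up 54.2% to 54.8% of the sum under pressure, against 21.9% in the control, and Dkk3 35.2% to 36.8%, against 11.0%. Sfrp4 and Frzb together made up 7.34% to 9.11%, against 0.224%. The 19 Wnt ligand genes summed to 8.07 to 9.22 FPKM under pressure and 14.6 FPKM in the control. The antagonist sum was 3.20 to 3.71 times the ligand sum under pressure and 13.0 times in the control. The control's ratio rests largely on Sfrp1. The lower ligand sum under pressure was carried by Wnt10b, at 0.319 to 0.501 FPKM against 8.20 FPKM in the control. Wnt4 went the other way, at 2.35 to 3.23 FPKM against 0.518 FPKM. The ratios are therefore no measure of the ligands or antagonists as a set. These are RNA levels and carry no weight for how strongly each protein acts.

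**Figure D3:**
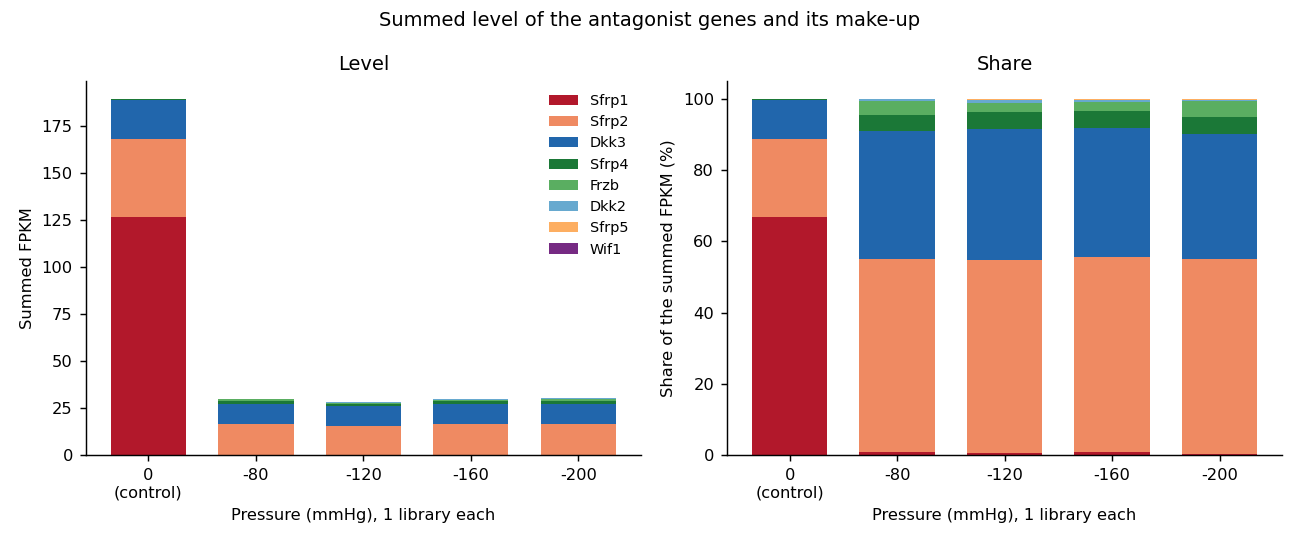
Summed FPKM of the antagonist genes (left) and each gene's share of that sum in percent (right), by library. Under pressure the sum was 28.3 to 30.3 FPKM, mostly Sfrp2 and Dkk3, against 189 FPKM in the control, mostly Sfrp1.

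To set the members against all genes, a difference of at least 1 in log2(FPKM + 1), which is 2-fold on that scale, was counted for genes whose 5 libraries averaged 1 FPKM or more. This scale understates the change of genes with low values. Of the 10 members 4 reached the mean: Sfrp1, Sfrp2, Sfrp4 and Dkk3. Sfrp4 was just inside it at 1.18 FPKM and Frzb just outside at 0.820 FPKM. Sfrp1 reached the mean through the control library alone, so that it had to differ. At each pressure 2 of the 4 were lower than the control (Sfrp1 and Sfrp2) and 0 higher. Of all 12113 genes that reached the mean 6.89%, 6.45%, 6.03% and 6.38% were lower from -80 to -200 mmHg, and 10.7%, 8.85%, 9.59% and 9.1% were higher. The share lower at all 4 pressures was 4.46% and the share higher 6.49%. The 4 comparisons share the control library.

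On that scale Sfrp1 differed by -6.81 to -6.64, the lowest of 12113 genes at -80, -120 and -160 mmHg and the second lowest at -200 mmHg. With values near the floor under pressure, that place mostly restates its level in the control, through which alone it reached the mean. Sfrp2 differed by -1.38 to -1.28. Dkk3 differed by -0.93 to -0.89 and Sfrp4 by 0.72 to 0.82, both short of the rule. The median of the 4 genes was -1.16 to -1.09, beside 0.14 to 0.16 for all 12113 genes. It leaves out Frzb and takes in Sfrp1, and with no filter the median of all 10 members, averaged over the pressures, was 0.000322. With the trimmed mean of all log ratios set to 0, Dkk3 differed by -1.06 to -1.02 and passed at all 4 pressures. With a pseudocount of 0.1 Sfrp4 passed at all 4 (1.51 to 1.66). The share of all genes that passed was not counted under these settings.

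**Figure D4:**
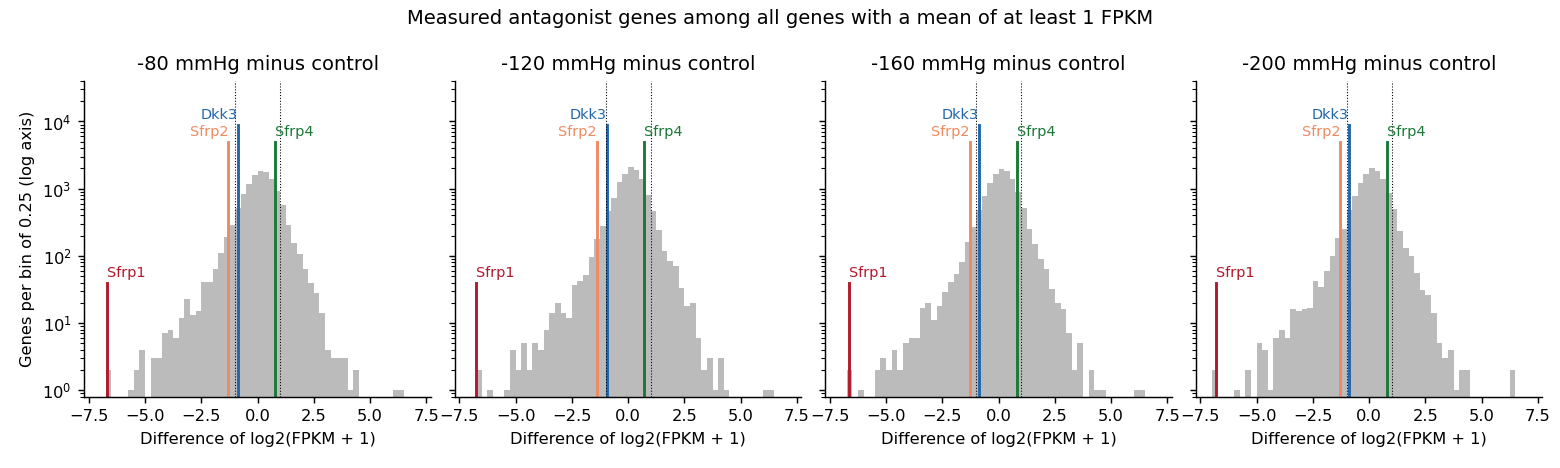
Number of genes (log axis) by difference of log2(FPKM + 1) for each pressure minus the control, over 12113 genes in bins of 0.25, with the 4 measured members as coloured lines and the 2-fold rule dotted. Sfrp1 lay at the lower edge in every panel, and Dkk3 and Sfrp4 lay inside the dotted lines.

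Counted instead by reads, with the whole 95% interval of the ratio beyond 2-fold and no limit on the mean, Sfrp1 and Sfrp2 were lower and Sfrp4 and Frzb higher at all 4 pressures, of 8 members with any read. Over the 26794 genes with any recovered read 2.69% were lower and 4.22% higher at all 4 pressures. Genes whose whole reads could not be recovered were left out. A gene with few reads can hardly pass this rule, so these shares are no like background for genes with more reads. At the single pressures, from -80 to -200 mmHg, 4.02%, 3.8%, 3.58% and 3.89% were lower and 7.16%, 5.98%, 6.57% and 6.62% higher. Counts by this rule compare libraries, not conditions.

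The pressures were then compared with one another. Of the 4 measured members 0 passed the 2-fold rule between -120 and -80 mmHg, between -160 and -120 mmHg or between -200 and -160 mmHg, where 0.883%, 0.974% and 0.9% of all genes passed. The largest step was that of Sfrp1, -0.17 for -200 over -160 mmHg, on 11 and 21 reads, and the interval of that read ratio (0.215 to 1.07) included 1. Sfrp2 and Dkk3 had ratios of 0.944 to 1.07 between neighbouring pressures, all with intervals that included 1. The exception was Frzb, whose reads per library total were 1.84 times higher at -200 than at -160 mmHg (80 against 41 reads, interval 1.25 to 2.75). That pair was picked after its values were seen, and without replicates it compares 2 libraries only. Frzb had no order by pressure, since -80 mmHg lay above -120 and -160 mmHg.

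Genes whose pattern over the 5 libraries was nearest to a member were found by Euclidean distance between log2(FPKM + 1) values centred on each gene's mean. For Sfrp1 the nearest was Mmp2, a gelatinase (distance 0.174). Mmp2 stood at 2.43 to 3.33 FPKM under pressure and 398 FPKM in the control. Within a distance of 0.5 there was 1 gene with a regular symbol for Sfrp1, 656 for Sfrp2, 1684 for Dkk3 and 4072 for Sfrp4. For Sfrp2 the nearest were Fgf7, a fibroblast growth factor (37.3 to 42.8 FPKM under pressure, 103 FPKM in the control), and Sec16b. For Dkk3 they were Gsdme and Anapc5, and for Sfrp4 Rnf219 and Gimap9.

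Genes beside the members on the chromosome were also read. Next to Sfrp1 the nearest protein-coding genes were Golga7 at 154428 bp, with 10.7 to 12.4 FPKM under pressure and 10.2 FPKM in the control, and Zmat4 at 186387 bp, with at most 0.0212 FPKM in any library. Beside Sfrp2, Tlr2, a receptor for bacterial lipoproteins at 61956 bp, stood at 16.5 to 17.5 FPKM under pressure and 48.7 FPKM in the control, a log2 difference of -1.50 to -1.42. Epdr1, 3177 bp from Sfrp4, differed by 0.55 to 0.70, and Usp47 and Mical2 beside Dkk3 by 0.29 to 0.45, opposite in sign to Dkk3. Frzb lies between Dnajc10 and Nckap1, which differed by 0.16 to 0.48 on the log2 scale. These neighbours were looked up after the members' values were seen.

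The other side of the pathway was described with lists of Wnt ligands, receptors, R-spondin genes, other extracellular inhibitors and feedback targets. Of 63 further genes 27 reached the mean. At all 4 pressures 6 were higher and 3 lower than the control, and for 16 no pressure met the rule. Of all genes 6.49% were higher and 4.46% lower, but the counts of the 27 cannot be read against these shares, since Wnt4, Axin2 and Apcdd1 were under 1 FPKM in the control, and Wnt10b and Ror2 under 1 FPKM in every pressure library. By reads, 8 of the 55 listed genes with any recovered read were higher at all 4 pressures and 10 lower, so the balance of higher and lower depended on the rule. These were 14.5% and 18.2%, beside 4.22% and 2.69% of all genes with any recovered read. The latter include genes with too few reads to pass, so the shares are not like for like. Of the 4 measured ligand genes Wnt4 was higher (2.35 to 3.23 FPKM under pressure, 0.518 FPKM in the control) and Wnt10b, which favours bone over fat formation, lower (0.319 to 0.501 FPKM, against 8.20 FPKM). Wnt5b and Wnt9a did not pass at any pressure.

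Among the 12 measured receptors, 2 were higher at all 4 pressures and 1 was lower (Ror2), beside 6.49% and 4.46% of all genes, and 8 passed at none. Ror2 reached the mean through the control library alone, so that it had to differ. By reads, 4 of 18 were higher at all 4 pressures (Fzd3, Fzd5, Fzd8 and Lrp6) and 2 lower (Fzd6 and Ror2). Of all genes with any recovered read, some with too few reads to pass, 4.22% were higher and 2.69% lower. Lrp6, the co-receptor that Dkk1 blocks, stood at 18.7 to 19.9 FPKM under pressure and 8.29 FPKM in the control, whereas Lrp5 stood at 4.73 to 6.30 FPKM and 4.16 FPKM and did not pass. Fzd8 stood at 12.5 to 17.4 FPKM, against 4.60 FPKM. Ror2, a receptor of Wnt5a in the branch without beta-catenin, stood at 0.104 to 0.327 FPKM, against 6.87 FPKM. Wnt5a itself, whose mean was under 1 FPKM, had 11 to 22 reads under pressure and 212 reads in the control. Of the partners of the absent inhibitors, Kremen1, a receptor for Dkk proteins, stood at 4.67 to 5.97 FPKM under pressure (639 to 765 reads), against 852 reads in the control. Kremen2 had at most 4 reads in any library, and Lrp4, which assists sclerostin, had 43 to 60 reads under pressure and 127 reads in the control.

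Rspo2, a secreted agonist that keeps Wnt receptors at the surface, stood at 2.69 to 3.14 FPKM under pressure and 29.0 FPKM in the control. Its relative Rspo3 stood at 15.8 to 16.8 FPKM, against 7.63 FPKM, and passed at -200 mmHg. Of the 4 other measured inhibitors Igfbp4, an IGF-binding protein that can also bind Lrp6 and Frizzled, stood at 93.1 to 115 FPKM under pressure and 32.0 FPKM in the control, and Apcdd1, a membrane inhibitor, at 4.94 to 5.58 FPKM, against 0.827 FPKM. With Igfbp4 as its largest part the sum of that list was 116 to 141 FPKM under pressure and 51.0 FPKM in the control. The list did not move as 1. By reads, of its 8 genes with any read, 2 were higher at all 4 pressures (Igfbp4 and Apcdd1) and 3 lower (Draxin, Notum and Rnf43). Of all genes with any recovered read, which include genes with too few reads to pass, 4.22% were higher and 2.69% lower. Draxin had 13 to 27 reads under pressure and 148 reads in the control.

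Of 6 measured feedback targets of beta-catenin, 2 were higher at all 4 pressures and 0 lower, beside 6.49% and 4.46% of all genes. Both higher targets, Axin2 and Apcdd1, were under 1 FPKM in the control and reached the mean through the pressure libraries. These counts therefore cannot be read against those shares. By reads, of 11 targets with any recovered read, 2 were higher (Axin2 and Apcdd1) and 3 lower (Nkd2, Notum and Rnf43). Tcf7 and Myc, whose reads could not be recovered, were left out of this count. Of all genes with any recovered read, which include genes with too few reads to pass, 4.22% were higher and 2.69% lower. Axin2, a scaffold of the destruction complex, stood at 3.70 to 4.04 FPKM under pressure and 0.395 FPKM in the control, with 9.37 to 10.2 times the reads per library total. Apcdd1 was the other higher target, and by the 2-fold rule Tcf7, Znrf3, Ccnd1 and Myc passed at none. Lef1 had 41 to 55 reads under pressure and 45 in the control. Notum, a secreted deacylase that inactivates Wnt ligands, did not reach a mean of 1 FPKM and had 0 to 7 reads under pressure and 97 reads in the control. Rnf43, a ligase that removes Frizzled receptors, had 6 to 11 reads under pressure and 84 reads in the control. Nkd2, a relative of the feedback inhibitor Nkd1, had 0 to 3 reads against 38, Sp5 0 to 6 against 17, Nkd1 0 to 5 against 10 and Lgr5 10 to 24 against 57.

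**Figure D5:**
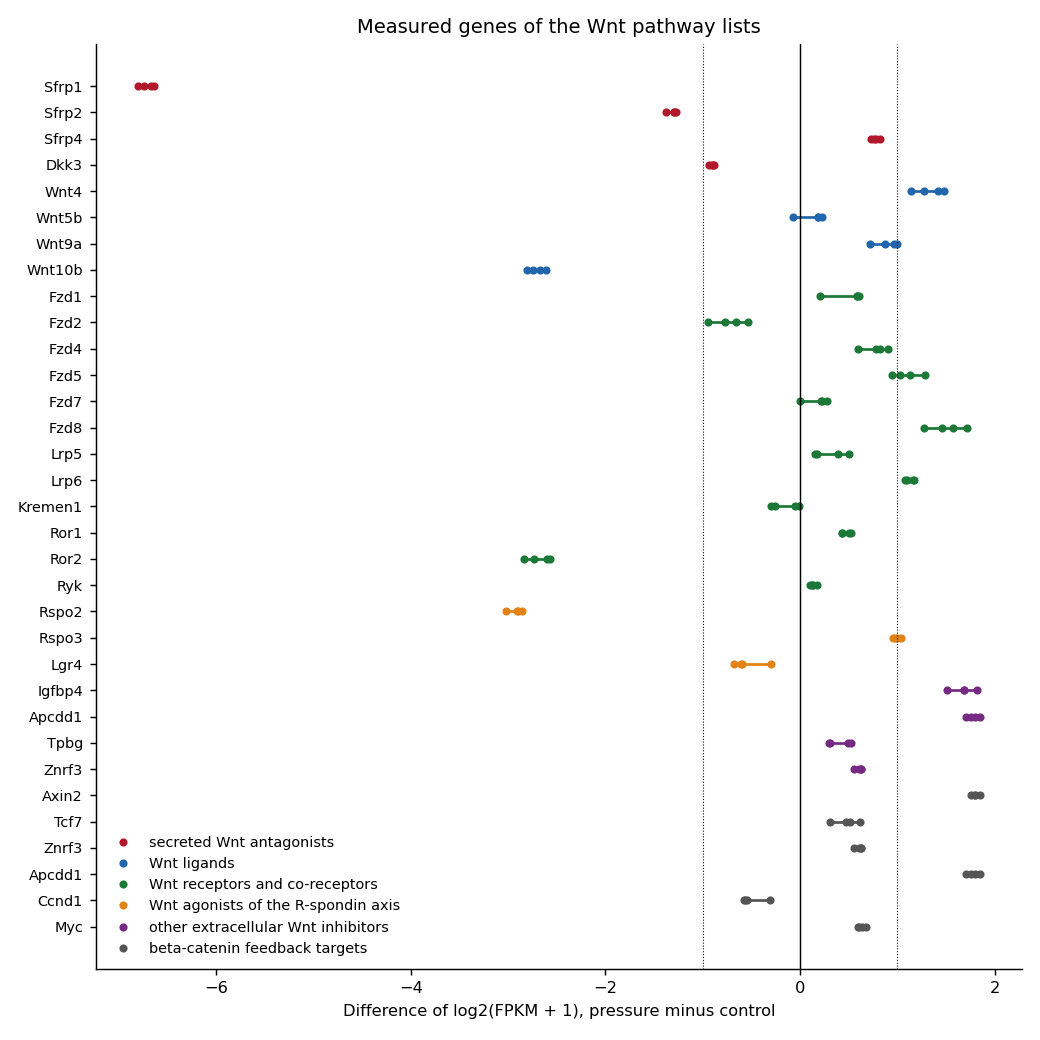
Difference of log2(FPKM + 1), pressure minus control, for every measured gene of the Wnt lists, with 1 point per pressure and the 2-fold rule dotted. Genes of 2 lists are drawn once in each. Sfrp1 stood lowest, at -6.81 to -6.64, and Axin2 and Apcdd1 highest, up to 1.85.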

How the data were processed

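RNA-seq of 5 libraries, 1 at each of 0, -80, -120, -160 and -200 mmHg, was read from 1 table with an FPKM value per gene and library, as the authors deposited it. The submitters' processing notes name build rn6, a rat genome, and the tools SAMtools, HISAT2 and featureCounts (1.5.0-p3), whereas all 55401 gene IDs in the file are mouse Ensembl IDs. Filters and strand setting are not given in the sources used here. Symbols, positions (GRCm38) and exon lengths came from GENCODE release M21: 55141 IDs matched in any version and 54349 with their version. For these 54349 genes (98.1%) the product of FPKM and exon length fell on whole steps, of 1 size in each library (tolerance 0.001 reads), which gave reads and library totals. Columns of other samples numbered 0.

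Differences are of log2(FPKM + 1) over the 12113 genes that averaged 1 FPKM or more, and a gene passed at a difference of 1. With 1 library per condition no test was run. Ratios of reads have exact Clopper-Pearson intervals at 95%, single levels exact Poisson intervals, and 0 reads a floor of 3 reads per library. The 10 members and all lists were chosen with earlier results of these data known, so they are no independent support. All 10 members were named, with up to 4 genes past the rule per list, Axin2, Lef1, Lrp4, Lrp5, Lrp6, Kremen1 and Kremen2, and the 2 genes nearest in pattern to each measured member, of which 1 is not reported here. Wnt5a, Wnt5b, Wnt9a, Fzd3, Fzd5, Fzd6, Rspo3, Draxin, Notum, Rnf43, Tcf7, Znrf3, Ccnd1, Myc, Nkd1, Nkd2, Sp5 and Lgr5 were named after their values were seen. Of the marker lists, endothelial, adipocyte and epithelial genes were looked at as well. Promoter windows are from RefSeq (GRCm38.p6). Python 3.11.15, numpy 2.4.6, pandas 2.3.3, scipy 1.17.1, matplotlib 3.10.9 and Biopython 1.88 were used.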

Additional observations from a re-analysis of the deposited data

How the results depend on the processing

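The count of members lower than the control at all 4 pressures was 2 as reported, 1 under a 4-fold rule (Sfrp1 alone, at each single pressure too) and 2 with any 1 pressure library left out. It was 3 under the trimmed mean of log ratios and under a 1.5-fold rule, where Dkk3 passed as well. The count of higher members was 0 as reported and 0 with any 1 pressure library left out. It was 1 at every pressure (Sfrp4) with a pseudocount of 0.1 or a 1.5-fold rule, 2 at every pressure (Sfrp4 and Frzb) by reads, and 1 (Frzb) at -80 and -200 mmHg with no filter. The median difference of the measured members averaged -1.11 over the pressures as reported. It was -1.16 with a pseudocount of 0.1, -0.93 with 5, -1.31 at a mean of 5 FPKM, -1.24 under the trimmed mean, -1.10 under upper-quartile scaling and also with the 50 most abundant genes left out of the totals, and -1.08 under quantile normalization. With no filter it turned to 0.000322, since 10 members then count and 5 of them had at most 12 reads in any library. The summed level under pressure over that of the control was 0.158, 0.150, 0.158 and 0.160 from -80 to -200 mmHg as reported, 0.143, 0.136, 0.142 and 0.145 under the trimmed mean, and 0.160, 0.149, 0.158 and 0.163 under upper-quartile scaling. The count of other Wnt genes higher at all 4 pressures was 6 as reported, 11 with a pseudocount of 0.1 or a 1.5-fold rule, 1 with a pseudocount of 5, 3 at a mean of 5 FPKM, 8 by reads and 0 under a 4-fold rule. The count of lower ones was 3 as reported, 5 with no filter, 1 at a mean of 5 FPKM and 10 by reads. The cause of these shifts was not tested. The share of all genes that passed was counted only for the rule as reported and for the rule by reads. Under the other settings the counts of members and of other Wnt genes therefore cannot be set against all genes. Over the alternatives of scale and pseudocount Sfrp1 differed by -9.05 to -4.64, Sfrp2 by -1.51 to -1.11, Dkk3 by -1.06 to -0.71 and Sfrp4 by 0.22 to 1.66, with no change of sign. No paired analysis was possible because each condition has 1 library and the labels give no replicate numbers. Depth limits Dkk1, Dkk2, Sfrp5, Wif1 and Sost, for which no difference could be read.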
